A study of Sus scrofa with 18 samples.

Results

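Blastocysts grown from vitrified porcine cloned zygotes were compared with blastocysts grown from fresh cloned zygotes, which took 6 of the 18 RNA-Seq libraries of the series, 3 in each group. The members were the 6 blastocyst columns of the deposited gene table, with every gene considered. All embryos were made by somatic cell nuclear transfer, in which an ear cell of a Diannan miniature pig was fused with an enucleated oocyte, and both groups were activated and then cultured in PZM-3 medium. In the vitrified group the zygotes were taken through ethylene glycol and sucrose, plunged into liquid nitrogen on a Cryotop carrier and warmed before culture, whereas the fresh zygotes went straight to culture. Blastocysts were collected 144 h after activation, and each library was made from 1 embryo, so the spread between libraries includes the difference between single embryos. Vitrification was done days before the blastocysts were taken, so that the comparison covers those embryos of each group that reached the blastocyst stage.

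A blastocyst consists of an outer trophectoderm, which pumps fluid into the cavity and later forms the placenta, and an inner cell mass that separates into the epiblast, the source of the fetus, and the hypoblast, the source of the yolk sac endoderm. Vitrification turns the cell into a glass without ice crystals, and exposes it to concentrated cryoprotectants, to shrinkage and swelling, and to rapid cooling and warming. In mammalian embryos the endoderm of the yolk sac is known for lipid transport and nutrient uptake, and the trophectoderm for epithelial keratins and ion transport.

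The level of a gene is given in FPKM (fragments scaled to the length of the gene and to the total of the library). Between 7551 and 7834 genes reached 1 FPKM in a blastocyst library, and mitochondrially encoded genes took 11.4 to 21.9% of the summed FPKM. The mean correlation of a library with the other 5 over log2(FPKM + 1) was lowest in vitrified replicate 1, at 0.949, and highest in fresh replicate 1, at 0.964. Trophectoderm markers summed to 2245 to 3725 FPKM in the vitrified and 3845 to 4248 FPKM in the fresh blastocysts, against 13.6 to 44.2 FPKM in the 2-cell libraries. Oocyte markers summed to 2.19 to 3.86 and 1.62 to 8.45 FPKM, against 5409 to 10328 FPKM in the 2-cells, so that the 6 libraries carried the blastocyst markers of their labels. Markers of cumulus cells summed to at most 2.58 FPKM and those of fibroblasts to at most 1.90 FPKM in any blastocyst.

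In the vitrified group, 117 of 7833 genes tested were called higher (1.49%) and 60 were called lower (0.766%). A gene was called when limma gave an unadjusted p under 0.05 and the difference in mean log2(FPKM + 1), hereafter the log2 change (vitrified minus fresh), was beyond 1 in either direction, which is the threshold of the study. At an adjusted p under 0.05 there was 1 gene (0.0128%), ATP6V0D2, while 1266 genes had an unadjusted p under 0.05, 1008 of them higher (12.9%) and 258 lower (3.29%). The split between higher and lower rested on the scaling. The median log2 change of all genes was 0.11, and after quantile normalization, which moved that median to -0.01, 54 genes were called higher (0.689%) and 82 lower (1.05%). After median ratio scaling, with a median of -0.02, the counts were 53 higher (0.676%) and 92 lower (1.17%). Without the fold threshold, 7.61% of genes were higher and 6.22% lower at an unadjusted p under 0.05 after quantile normalization, and 7.36% and 7.08% after median ratio scaling. Every vitrified library was above every fresh one for 17.3% of genes and below every fresh one for 5.27%, as deposited, which is the background for any gene described as higher or lower in every vitrified library. The calls shared by the deposited values and both scalings were 49 higher and 58 lower. Of the 60 genes called lower, 8 were under 1 FPKM in every vitrified library and so were tested because of their level in the fresh blastocysts.

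**Figure D1:**
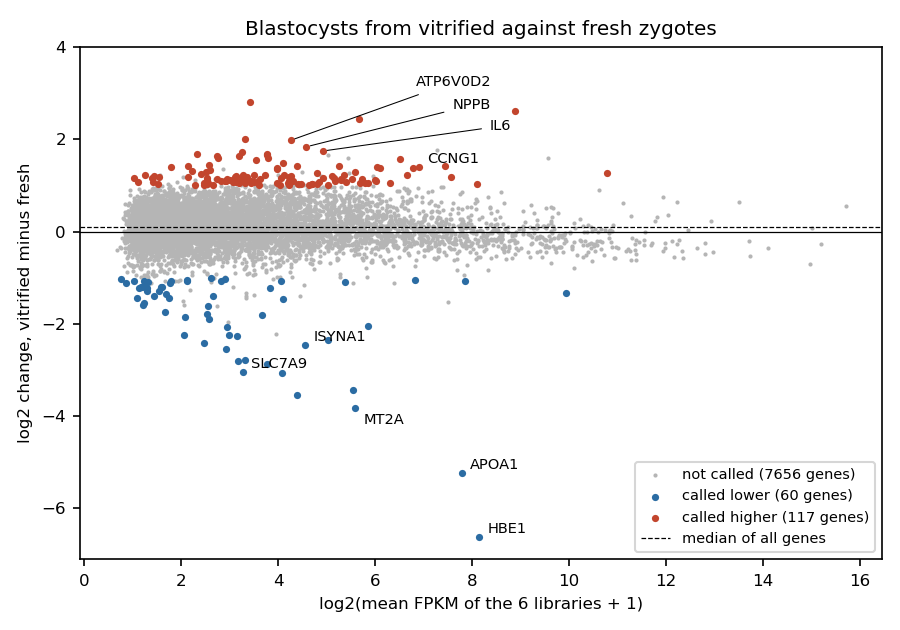
Change against level for the 7833 genes tested: the horizontal axis is log2 of the mean FPKM of the 6 libraries plus 1, and the vertical axis is the log2 change, vitrified minus fresh. Red points are the 117 genes called higher, blue points the 60 called lower, and the dashed line is the median of all genes at 0.11. The called lower genes reached -6.62 (HBE1), whereas ATP6V0D2, the gene with an adjusted p under 0.05, was at 1.98.

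The largest falls among genes called under the deposited values and both scalings, with no overlap between groups, were far larger than the largest rises. HBE1, the embryonic epsilon globin, stood at 0.851, 2.55 and 20.7 FPKM in vitrified replicates 1, 2 and 3 and at 493, 851 and 325 FPKM in fresh replicates 1, 2 and 3. The lowest fresh value was 15.7 times the highest vitrified one. Its log2 change was -6.62 ± 0.83 (SE; limma adjusted p = 0.105). APOA1 and APOE, which carry lipid in lipoproteins, were also called lower, at -5.23 and -3.08. SLC7A9, the light subunit of the cystine and basic amino acid transporter, was at 0.372, 0.0723 and 3.71 FPKM in the vitrified and 7.72, 20.8 and 19.3 FPKM in the fresh libraries. For SLC7A9 the change of -3.04 ± 0.59 had a limma adjusted p of 0.115. CIDEB, which acts on lipid droplets and lipoprotein loading in liver cells, was listed at 0.499, 0.0001 and 1.83 FPKM against 3.74, 10.6 and 10.5 FPKM, a change of -2.41. The value 0.0001 is the number the deposited table gives for a level of 0.

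ISYNA1, which turns glucose 6-phosphate into inositol phosphate, the first step of inositol synthesis, was at 6.40, 2.83 and 11.1 FPKM in the vitrified and 34.0, 48.3 and 32.4 FPKM in the fresh blastocysts. The lowest fresh value was 2.92 times the highest vitrified one, and the change was -2.46 ± 0.40 (limma adjusted p = 0.110). PCP4L1 was at 2.30, 0.0001 and 7.88 FPKM against 15.9, 25.6 and 24.1 FPKM. OXT, which encodes oxytocin, was at 0.386, 4.34 and 2.59 FPKM against 11.2, 16.5 and 12.6 FPKM, a change of -2.26. GSC, a homeobox factor of the gastrula organizer in vertebrates, was at 0.921, 0.639 and 6.10 FPKM against 11.9, 11.4 and 9.23 FPKM, and PGM5, a relative of phosphoglucomutase found at cell junctions, fell by 1.82 on the log2 scale. SNORA57, which guides pseudouridylation of RNA, was at 6.73, 0.343 and 0.254 FPKM against 11, 20.4 and 15.4 FPKM. This gene is shorter than a usual cDNA fragment, so that its FPKM rests on few bases and may include reads of its host transcript. In most of these genes vitrified replicate 3 was the nearest to the fresh libraries. Over the 60 genes called lower, it was the highest vitrified library in 39, against 35.2% of all genes tested.

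**Figure D2:**
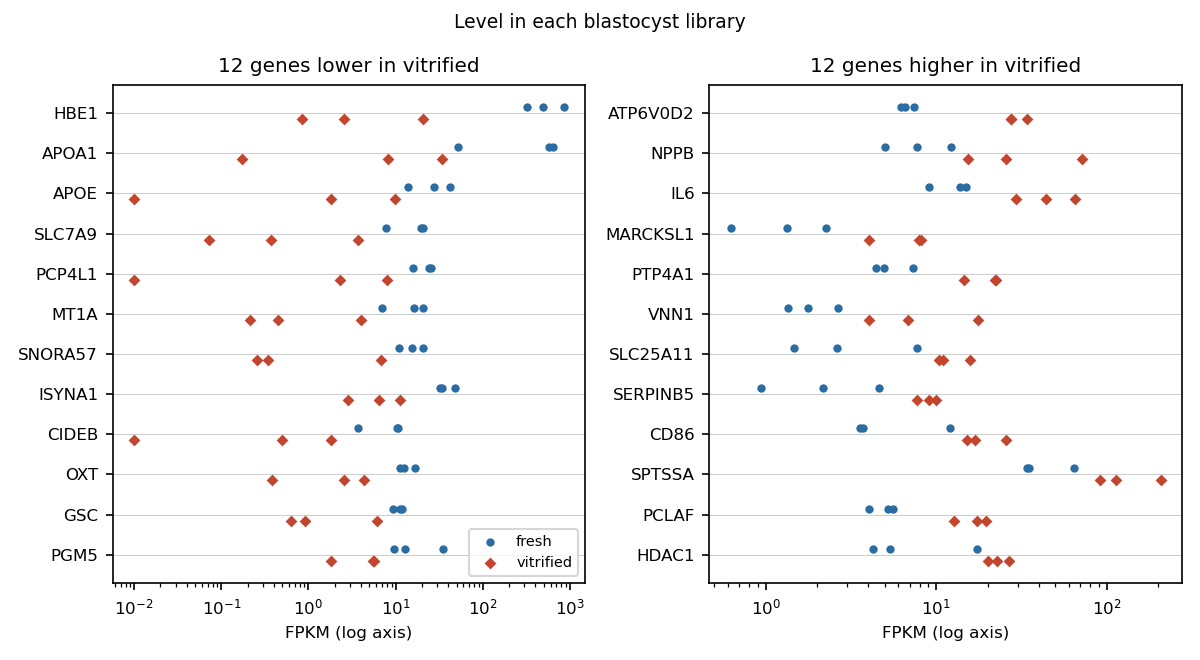
FPKM on a log axis in each of the 6 blastocyst libraries for the 12 genes with the largest falls and the 12 with the largest rises among those called under all 3 scalings without overlap of the groups. Blue circles are fresh and red diamonds vitrified libraries, and values listed at 0.0001 are drawn at 0.01. HBE1 spans 0.851 to 20.7 FPKM in the vitrified and 325 to 851 FPKM in the fresh libraries, while ATP6V0D2 lies between 27.4 and 34.3 FPKM and between 6.26 and 7.39 FPKM.

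The rises were smaller, and how even they were between embryos differed from gene to gene. ATP6V0D2, the d2 subunit of the membrane sector of the vacuolar proton pump, was at 27.4, 27.4 and 34.3 FPKM in the vitrified and at 6.61, 7.39 and 6.26 FPKM in the fresh blastocysts. Its change of 1.98 ± 0.18 had a limma adjusted p of 0.0418, and it was called in all 6 fits that left out a library. The adjusted p ranged from 0.00269 to 0.390 over the 14 alternative settings and was under 0.05 in 4 of them. Of 18 tested subunits of the pump, ATP6V0D2 alone was called, against 1.49% of all genes called higher. At an unadjusted p under 0.05, 4 were higher and 0 lower as deposited and under both scalings, against 12.9% and 3.29% of all genes as deposited. The median of the list was 0.08 as deposited, 0.06 after quantile normalization and -0.06 after median ratio scaling, where its sign turned. ATP6V1D (0.68), ATP6V1G1 (0.78) and ATP6AP2 (0.77) were higher at an unadjusted p under 0.05 without passing the fold threshold.

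Among secreted signals, NPPB, the B-type natriuretic peptide, was at 15.3, 25.7 and 71.8 FPKM against 12.3, 7.72 and 5.02 FPKM, a change of 1.84 ± 0.54 (limma adjusted p = 0.185). IL6, a cytokine that signals through STAT3, was at 65.4, 44.0 and 29.4 FPKM in the vitrified and 15.0, 9.11 and 13.9 FPKM in the fresh libraries. The groups did not overlap for either gene, and the change of IL6 was 1.75 ± 0.32 (limma adjusted p = 0.110). IL6R, the receptor chain that binds IL6, went the other way, with 0.281, 0.0660 and 0.893 FPKM against 1.51, 2.58 and 2.42 FPKM and a change of -1.19. It reached 1 FPKM in the fresh libraries only, so it could not be tested once any fresh library was left out. IL6ST, the signalling chain it shares with related receptors, was at 11.5, 1.88 and 10.5 FPKM against 7.05, 12.8 and 3.28 FPKM, with the groups fully mixed and a change of -0.07. STAT3 had a change of -0.33 and was not called.

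The other genes with the largest rises had varied roles. PTP4A1, a protein tyrosine phosphatase, was at 22.1, 22.4 and 14.6 FPKM against 4.42, 4.93 and 7.33 FPKM (1.66 ± 0.25, limma adjusted p = 0.110). PCLAF, which binds the replication clamp PCNA, was at 12.7, 17.2 and 19.7 FPKM against 4.03, 5.59 and 5.25 FPKM, a change of 1.55 ± 0.22 (limma adjusted p = 0.109). The lowest vitrified value was 1.99 times the highest fresh one for PTP4A1 and 2.27 times for PCLAF. MARCKSL1, an actin-binding substrate of protein kinase C, was at 7.92, 8.14 and 4.03 FPKM against 2.26, 0.626 and 1.34 FPKM. SPTSSA, a small subunit of serine palmitoyltransferase, which opens sphingolipid synthesis, was at 206, 91.2 and 113 FPKM against 63.9, 34.9 and 34.1 FPKM. SLC25A11, the mitochondrial oxoglutarate carrier, and CD86, a costimulatory ligand of immune cells, changed by 1.63 and 1.59, with fresh ranges of 1.47 to 7.68 and 3.58 to 12.1 FPKM just under their vitrified ranges of 10.4 to 15.8 and 15.2 to 25.8 FPKM. VNN1, which splits pantetheine into pantothenate and cysteamine, reached 17.6 FPKM in vitrified replicate 1 and 4.02 and 6.80 FPKM in replicates 2 and 3, against 1.35 to 2.66 FPKM in the fresh libraries.

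Lineage markers were read next, to see whether the called genes belonged to a lineage. Of 9 hypoblast markers tested (of 19 in the table), 3 were called lower and 0 higher, against 0.766% and 1.49% of all genes. Of 13 trophectoderm and 8 epiblast markers tested, none was called in either direction under any of the 3 scalings. At an unadjusted p under 0.05, 2 trophectoderm markers were higher and 3 lower as deposited, against 12.9% and 3.29% of all genes. These counts were 0 and 1 after quantile normalization and 0 and 3 after median ratio scaling. Among epiblast markers 1 was higher and 1 lower as deposited, and 1 and 2 under each scaling. HNF4A, a nuclear receptor of the visceral endoderm and liver, was at 0.304, 0.0001 and 1.36 FPKM in the vitrified and 2.26, 3.64 and 2.68 FPKM in the fresh blastocysts. Its change was -1.39 ± 0.33 (limma adjusted p = 0.137). PDGFRA, the growth factor receptor that marks early hypoblast in mouse, was at 0.0001, 0.0001 and 1.07 FPKM against 1.29, 2.14 and 2.59 FPKM, a change of -1.21. OTX2, a homeobox factor, overlapped between groups (1.5, 0.866 and 3.38 FPKM against 3.25, 5.62 and 5.53 FPKM). Its change of -1.06 lost the call without fresh replicate 2 (-0.95) or 3 (-0.96) and without vitrified replicate 1 (-0.99) or 2 (-0.78). HNF4A and PDGFRA reached 1 FPKM in vitrified replicate 3 and in no other vitrified library, so that they were tested because of their level in the fresh ones.

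None of the remaining hypoblast markers was called, and 2 of the 9 tested had a change above 0. GATA6, a factor of early hypoblast formation in mouse, was at 22.7, 20.3 and 18.6 FPKM in the vitrified and 16, 12 and 12 FPKM in the fresh libraries, a change of 0.59 that did not pass the fold threshold. GATA4 lay near 1 FPKM throughout, at 0.734 to 1.01 and 0.901 to 1.02 FPKM. FN1, the matrix protein fibronectin, was at 0.0852, 0.0269 and 2.37 FPKM against 0.248, 7.01 and 9.10 FPKM and was not called (-1.58 ± 0.81), with fresh replicate 1 as low as the vitrified embryos. SOX17 and FOXA2, defining factors of the hypoblast, were listed at 0.0001 in all vitrified libraries and reached at most 0.340 and 0.184 FPKM in the fresh ones. The summed hypoblast markers overlapped, at 31.0 to 46.2 and 33.2 to 48.7 FPKM, a sum in which GATA6 took the largest share. The summed trophectoderm markers did not overlap, at 2245 to 3725 FPKM in the vitrified and 3845 to 4248 FPKM in the fresh blastocysts. In that sum the keratin KRT8 weighed far more than the factor CDX2, and the levels of both are given below. The median change of the tested markers was -0.05 for the hypoblast, -0.15 for the trophectoderm and -0.17 for the epiblast as deposited. After quantile normalization these were -0.22, -0.30 and -0.34. After median ratio scaling, where GATA4 fell below the filter, they were -0.68, -0.27 and -0.31. The median was thus below 0 in each list, while calls were found in the hypoblast list only. In whole embryos, fewer cells of a type and less RNA per cell cannot be told apart, and the part of hypoblast cell number in the falls of HBE1, APOA1, HNF4A and PDGFRA was not tested.

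No tested gene of the trophectoderm list passed the fold threshold. VGLL1, a cofactor of TEAD factors in human trophoblast, was below the level needed for a test, at 2.91, 0.644 and 3.17 FPKM in the vitrified and 0.383, 0.788 and 0.296 FPKM in the fresh blastocysts, with overlap of the groups. KRT8, an epithelial keratin, was at 1363, 620.1 and 559 FPKM in the vitrified and 1141, 1381 and 1523 FPKM in the fresh blastocysts, so that vitrified replicate 1 lay among the fresh values, and its change was -0.78. Its partner KRT18 had a change of -0.57 with no overlap of the groups. CDX2, a founding factor of the lineage, was at 1.96, 2.07 and 2.45 FPKM against 4.10, 2.51 and 4.12 FPKM (-0.52), while TFAP2C (0.69) and GATA3 (0.38) were higher in every vitrified library. Among epiblast markers KLF5 had a change of 0.77 and GDF3 one of -0.57. NANOG was listed at 0.0001, 0.0001 and 0.674 FPKM in the vitrified and at 1.21, 3.84 and 0.873 FPKM in the fresh blastocysts, without overlap but below the level needed for a test, and SOX2 was at most 0.209 FPKM in any library.

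**Figure D3:**
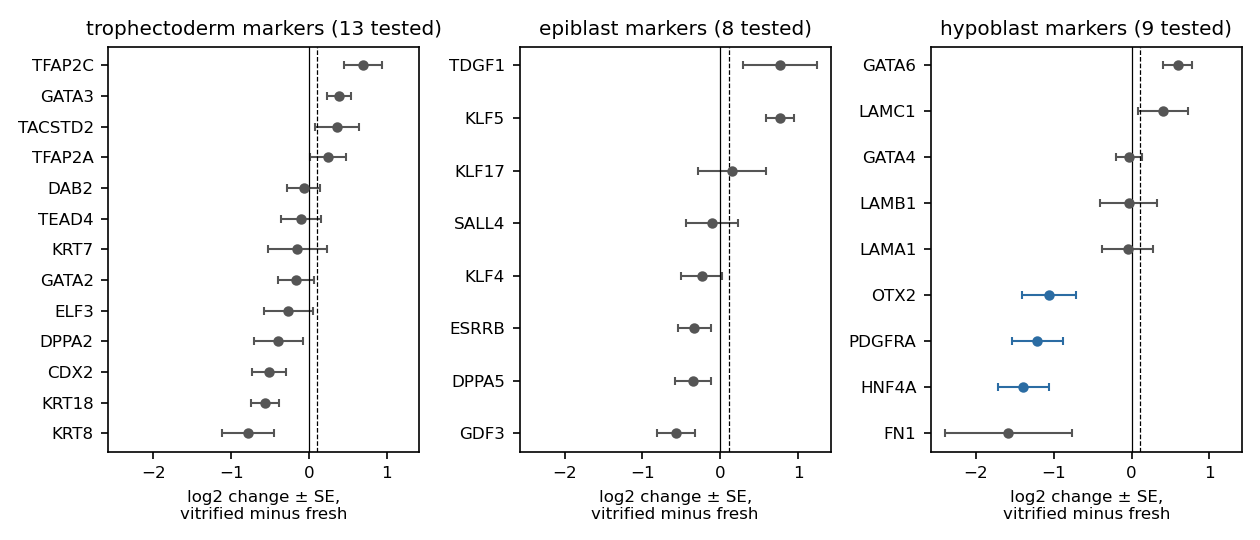
Log2 change with its standard error, vitrified minus fresh, of the tested trophectoderm (13), epiblast (8) and hypoblast (9) markers. The solid line is 0 and the dashed line the median of all genes at 0.11. Blue points are the 3 called genes, HNF4A (-1.39), PDGFRA (-1.21) and OTX2 (-1.06), all in the hypoblast panel, which also holds GATA6 at 0.59.

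In the list of MAP kinase feedback and early response genes, 3 of 18 tested were called higher and 0 lower, against 1.49% and 0.766% of all genes, with 2 called higher under each scaling. The median change was 0.56 (0.49 and 0.45 under the scalings) against 0.11 for all genes. ATF3, a stress-induced repressor, was at 34.0, 20.7 and 21.2 FPKM against 9.22, 12.8 and 9.0 FPKM. The change of 1.19 ± 0.25 (limma adjusted p = 0.124) lost its call without vitrified replicate 1 (0.97). DUSP5, a phosphatase that switches off ERK, was at 3.98, 3.49 and 1.71 FPKM against 0.497, 0.899 and 0.811 FPKM, a change of 1.19. As it passed 1 FPKM in the vitrified libraries only, it could not be tested once any of these was left out. JUN, a subunit of the AP-1 factor, was at 19.7, 13.5 and 8.07 FPKM against 4.08, 7.07 and 6.46 FPKM. Its change of 1.05 lost the call after quantile normalization (0.85) and median ratio scaling (0.90), and without fresh replicate 1 (0.85) or vitrified replicate 1 (0.77). KLF10 (0.81), ZFP36 (0.66) and DUSP14 (0.76) had an unadjusted p under 0.05 and were not called, and FOS, at 10.3, 3.91 and 1.21 FPKM against 0.730, 2.61 and 1.75 FPKM, overlapped between groups.

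Of 28 tested genes in a list of p53 targets and DNA damage genes, 4 were called higher and 0 lower, against 1.49% and 0.766% of all genes. The median was 0.45 (0.35 and 0.34 under the scalings). Under each scaling 2 were called higher. At an unadjusted p under 0.05, 8 were higher and 1 lower as deposited, and 5 were higher and 1 lower under each scaling. CCNG1, a cyclin induced by DNA damage, was at 210.1, 197 and 114 FPKM against 69.4, 62.7 and 58.2 FPKM, with the highest level in vitrified replicate 1. SERPINB5, the tumour suppressor maspin, was at 9.14, 9.998 and 7.70 FPKM against 4.65, 0.941 and 2.18 FPKM, and changed by 1.60. Both were called in all 6 fits that left out a library. SIAH1, a ubiquitin ligase, was at 5.64, 6.28 and 4.42 FPKM against 3.10, 1.44 and 2.26 FPKM, and lost its call under both scalings (0.85 and 0.87), without fresh replicate 2 (0.81) and without vitrified replicate 1 (0.97) or 2 (0.91). PHLDA3, an inhibitor of AKT, overlapped between groups (74.7, 67.3 and 27.5 FPKM against 42.6, 20.1 and 16.4 FPKM), and its call was lost under both scalings and in 4 of the 6 fits that left out a library (0.80 to 0.94). MDM2 (0.58), PMAIP1 (0.76), TIGAR (0.75) and ZMAT3 (0.69) were higher in every vitrified library without reaching the fold threshold, and CDKN1A, an inhibitor of cyclin-dependent kinases, overlapped at 15.0 to 34.0 and 7.30 to 18.1 FPKM.

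None of the 25 tested genes of the heat and cold shock list was called, and the list had a median of 0.45 (0.26 and 0.29 under the scalings). CRYAB, a small heat shock protein outside that list, was called higher and is described under the other observations. Of the 25, 9 were higher and 0 lower at an unadjusted p under 0.05, against 12.9% and 3.29% of all genes. After quantile normalization 6 were higher and 0 lower, and after median ratio scaling 5 and 1. RBM3, a cold-induced RNA-binding protein, was at 106, 85.8 and 53.7 FPKM in the vitrified and 50.3, 27.7 and 43.2 FPKM in the fresh blastocysts, a change of 0.99. CIRBP, the other classical cold-shock protein, was at 6.38, 9.09 and 6.49 FPKM against 8.81, 8.26 and 7.97 FPKM. YBX1 (0.85), HSPA8 (0.64) and CHORDC1 (0.84) were higher in every vitrified library, and HSPD1 and HSPB1 overlapped.

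Of 31 tested genes of protein folding and stress in the endoplasmic reticulum, 1 was called higher and 0 lower, against 1.49% and 0.766% of all genes. At an unadjusted p under 0.05, 2 were higher and 4 lower, against 12.9% and 3.29% of all genes. The called gene was SYVN1 (1.43), the ubiquitin ligase of the degradation pathway, at 4.51, 10.9 and 1.65 FPKM in the vitrified and 1.77, 0.697 and 0.879 FPKM in the fresh blastocysts. The groups overlapped, and the call was lost without vitrified replicate 2 (0.89) and without fresh replicate 2 (1.29) or 3 (1.36). SDF2L1 (-0.68) and CRELD2 (-0.61) were lower in every vitrified library, and HYOU1 (-0.92) and SEL1L (-0.64) overlapped. The median of the list was -0.00 as deposited, -0.16 after quantile normalization and -0.14 after median ratio scaling.

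Metallothioneins, small proteins that bind zinc and copper, fell the most among 32 tested genes of oxidant defence. MT1A, which the table describes as metallothionein-1E-like, was at 0.211, 0.445 and 3.99 FPKM in the vitrified and 16.3, 20.4 and 6.89 FPKM in the fresh blastocysts, a change of -2.79 ± 0.58 (limma adjusted p = 0.124). MT2A was at 2.80, 0.0001 and 28.8 FPKM against 80.3, 145 and 25.6 FPKM, so that vitrified replicate 3 lay above fresh replicate 3, and its change was -3.81. Metallothionein genes are near-identical copies, and reads may be split among them. The other members showed no common direction: NFE2L2 (0.78), the regulator of antioxidant genes, and the mitochondrial PRDX3 (0.88) and SOD2 (0.53) were higher in every vitrified library, while GPX1 (-0.58) and GSTO1 (-0.84) were lower in every one. None of these 5 passed the fold threshold under the deposited values. The median of the list was 0.02 as deposited and -0.15 after median ratio scaling.

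Among 52 tested genes of the actin cytoskeleton and its regulators, 3 were called higher and 0 lower, and 13 were higher at an unadjusted p under 0.05, with a median of 0.33 (0.21 and 0.14 under the scalings). ARPC5, a subunit of the Arp2/3 complex that branches actin filaments, was at 171, 128 and 122 FPKM against 61.6, 58.2 and 56.4 FPKM. The fresh values lay within 10% of each other, and the change was 1.23 ± 0.18 (limma adjusted p = 0.109). ANXA1, which binds membranes and actin in the presence of calcium, was at 158, 133 and 181 FPKM against 71.5, 62.6 and 46.3 FPKM, a change of 1.38 ± 0.21 (limma adjusted p = 0.110). CDC42EP3, an effector of CDC42, was called at 1.07 but lost the call after median ratio scaling (0.98), without fresh replicate 1 or 3 (0.92 for each) and without vitrified replicate 2 (0.87). ARPC2 (0.75), PFN1 (0.82), TPM4 (0.79) and ACTR3 (0.63) were higher in every vitrified library below the fold threshold. ACTB, the cytoplasmic actin, had a change of 0.22, and the cross-linker ACTN4 (-0.54) was lower in every vitrified library.

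In the annotated endocytosis pathway, 2 of 150 tested genes were called higher and 2 lower, against 1.49% and 0.766% of all genes. At an unadjusted p under 0.05, 31 were higher and 5 lower as deposited, 16 and 8 after quantile normalization and 17 and 9 after median ratio scaling. ARPC5 and CAPZA2, which caps actin filaments, were the genes called higher. CAPZA2 was at 35.5, 47.2 and 46.2 FPKM against 19.1, 22.0 and 20.6 FPKM, a change of 1.02 that fell under the threshold in both scalings (0.81 and 0.86), without fresh replicate 1 (0.97) and without vitrified replicate 2 (0.95) or 3 (0.96). The lower genes were PDGFRA and AP2A1, a subunit of the clathrin adaptor of the plasma membrane. AP2A1 was at 32.1, 20.8 and 23.2 FPKM against 66.5, 39.7 and 61.1 FPKM (-1.10), and was lost without fresh replicate 1 (-0.96) or vitrified replicate 2 (-0.97). GGA1, an adaptor of the Golgi that stands in the lysosome pathway, was at 1.79, 0.292 and 0.277 FPKM against 3.20, 2.87 and 3.15 FPKM, and was called in all 6 fits (-1.29).

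Transport and extracellular proteolysis each held calls in both directions. SLC34A2, a sodium-dependent phosphate transporter, was at 4.31, 6.39 and 6.19 FPKM against 1.96, 1.17 and 1.92 FPKM, a change of 1.31 ± 0.23 (limma adjusted p = 0.110). SLC7A9 was thus the lower and SLC34A2 the higher called gene among 9 tested brush border genes, against 0.766% and 1.49% of all genes. TIMP1, an inhibitor of matrix metalloproteinases, was at 1.70, 2.18 and 3.21 FPKM against 6.19, 13.2 and 5.52 FPKM (-1.40). SERPINH1, the collagen chaperone, was at 0.646, 0.201 and 1.60 FPKM against 1.36, 4.79 and 3.56 FPKM and lost its call without fresh replicate 2 (-0.93) or vitrified replicate 2 (-0.94). The complement genes CFD and C1QA were called lower at -1.45 and -1.12, both with overlapping groups. CFD, at 0.0001, 0.0001 and 2.85 FPKM against 1.22, 6.33 and 3.79 FPKM, held its call in 2 of the 6 fits and C1QA in 1 of them, and C1QA lost it after quantile normalization, where its change was -1.09, as well. HBB, the adult beta globin, was called lower at -2.35, but vitrified replicate 3 (35.7 FPKM) lay among the fresh values of 18 to 94.0 FPKM, and its call was lost without fresh replicate 1 (-2.42) or 2 (-1.73) and without vitrified replicate 1 (-1.60) or 2 (-2.0). Globin genes are close copies, so reads of HBB and HBE1 may be shared in part.

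In the annotated glycolysis pathway 3 of 37 tested genes were called higher and 0 lower, against 1.49% and 0.766% of all genes. The median of 0.14 became 0.00 and 0.02 under the scalings, and none of the 3 was called under either of them. PGM2, a phosphoglucomutase and phosphopentomutase, was at 92.0, 68.4 and 61.0 FPKM against 36.6, 28.7 and 38.4 FPKM (1.06), and lost its call without fresh replicate 2 (0.94) or vitrified replicate 1 (0.89). PGAM1 (1.14) and GALM (1.15) overlapped between groups, and without vitrified replicate 1, the highest library for each, they were at 0.80 and 0.62. LDHA, which makes lactate, was at 17.2, 14.1 and 13.1 FPKM against 7.28, 9.72 and 6.88 FPKM (0.82). GAPDH was lower in every vitrified library, at 196, 127 and 142 FPKM against 347, 281 and 265 FPKM, a change of -0.95 that passed the fold threshold only after median ratio scaling (-1.12).

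The oxidative phosphorylation pathway had a median of -0.12 over 120 tested genes (-0.07 after quantile normalization and -0.29 after median ratio scaling) and the ribosome pathway one of -0.16 over 119 (-0.12 and -0.32). At an unadjusted p under 0.05, 5 genes of the first were higher and 8 lower as deposited, 8 and 6 after quantile normalization and 4 and 24 after median ratio scaling. In the second these counts were 4 and 10, 4 and 8, and 3 and 35. Lower genes thus outnumbered higher ones in both pathways as deposited, where 12.9% of all genes were higher and 3.29% lower. After quantile normalization this held for the ribosome pathway only, against 7.61% and 6.22% of all genes. The excess was largest after median ratio scaling, under which 7.36% of all genes were higher and 7.08% lower. In the first the call was ATP6V0D2, which the annotation counts there. In the second it was MRPS10, a mitochondrial ribosomal protein, at 91.7, 84.1 and 84.4 FPKM against 41.0, 37.4 and 39.9 FPKM, with a change of 1.12 ± 0.15 (limma adjusted p = 0.109). Its groups were each within 10% of their mean, yet the change fell just under 1 in both scalings (0.97 and 0.95). Among all genes split into 5 groups by level, the group with the highest levels had a median of 0.05 and the group next below it one of 0.16, which after median ratio scaling were -0.12 and 0.01.

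In inositol metabolism, ISYNA1 was the called gene among 29 tested, against 0.766% of all genes called lower. ITPK1, an inositol phosphate kinase, was at 1.80, 1.76 and 1.53 FPKM against 4.05, 3.26 and 3.33 FPKM (-0.75) and was not called. IMPA1, which releases free inositol from inositol phosphate, had a change of 0.73, and the lipid kinases PIP5K1B (0.88), PIP4K2A (0.77) and PI4K2B (0.72) were likewise higher in every vitrified library without reaching the fold threshold. Of 11 tested osmolyte and water transporters none was called, with 0 of 11 under an unadjusted p of 0.05, and the aquaporin AQP3 overlapped at 11.1 to 33.2 and 20.7 to 26.3 FPKM.

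The cell cycle list, with 40 tested genes, and the chromatin list, with 28, held 1 gene called higher each, against 1.49% of all genes. CDK7, which phosphorylates and so switches on its fellow cell cycle kinases and is a part of the transcription factor TFIIH, was at 44.5, 54.9 and 44.0 FPKM against 26.4, 17.4 and 19.7 FPKM. Its change of 1.15 ± 0.21 (limma adjusted p = 0.110) was called in all 6 fits that left out a library but not after quantile normalization (0.94) or median ratio scaling (0.99). MAD2L1 (0.90), CDK2 (0.75) and TYMS (0.96), for the spindle checkpoint, the S phase and thymidylate synthesis, were higher in every vitrified library and were not called. HDAC1, a histone deacetylase, was at 26.6, 22.7 and 20.2 FPKM against 4.29, 17.4 and 5.36 FPKM, with fresh replicate 2 close below the vitrified embryos (1.49 ± 0.44, limma adjusted p = 0.186). TET1, which oxidizes methylated cytosine, was at 42.8, 35.9 and 39.2 FPKM against 16.6, 23.3 and 19.6 FPKM, a change of 0.96 that missed the fold threshold. PHF1, an accessory protein of the Polycomb repressive complex PRC2, was at 0.236, 0.0930 and 0.118 FPKM in the vitrified and 3.17, 2.01 and 2.30 FPKM in the fresh blastocysts. It was called lower, at -1.59 ± 0.19 (limma adjusted p = 0.103), with each group close together, but at these levels it could not be tested once a fresh library was left out.

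**Figure D4:**
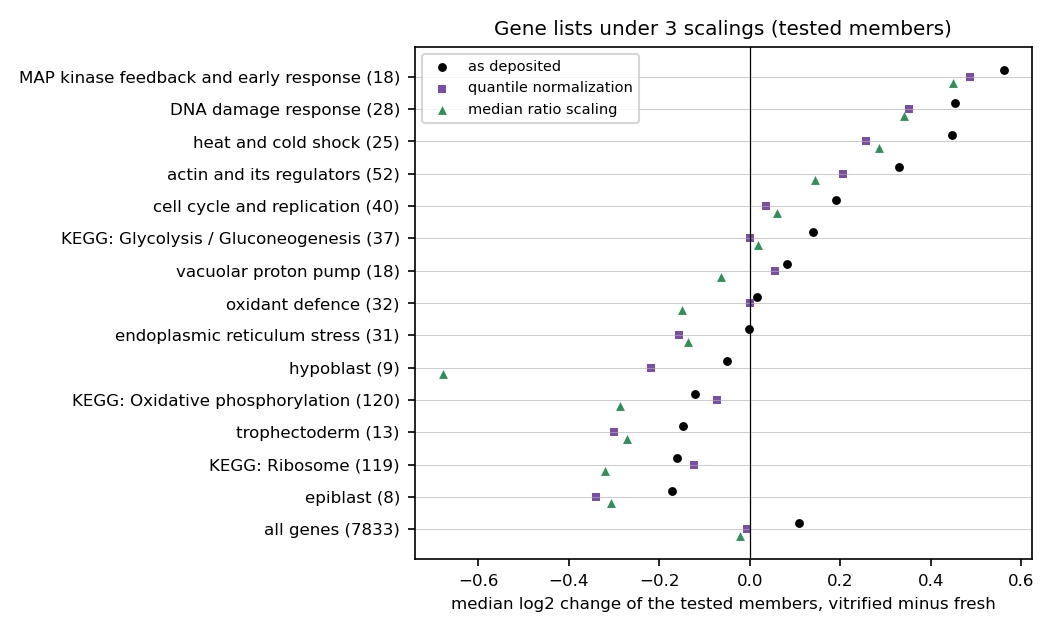
Median log2 change, vitrified minus fresh, of the tested members of 14 gene lists (number of members in brackets) and of all 7833 genes, as deposited (black circles), after quantile normalization (purple squares) and after median ratio scaling (green triangles). The early response list (0.56, 0.49 and 0.45) and the list of p53 targets and DNA damage genes (0.45, 0.35 and 0.34) lay above all genes (0.11, -0.01 and -0.02) in each. The latter list is labelled DNA damage response. The vacuolar proton pump changed sign under median ratio scaling (0.08 to -0.06), as did oxidant defence (0.02 to -0.15), and the hypoblast median dropped to -0.68 there as GATA4 fell below the filter.

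Finally, the effect of vitrification in blastocysts was set against that in 2-cells and 4-cells, each from 3 vitrified and 3 fresh libraries collected 24 h and 48 h after activation, with pools of 4 and 2 embryos. Over all 18 libraries and 11361 genes, the effect differed between blastocysts and 2-cells at an adjusted p under 0.05 for 2 genes (0.0176%), and between blastocysts and 4-cells for 3 (0.0264%). At an unadjusted p under 0.05 with a difference beyond 1 there were 209 (1.84%) and 964 (8.49%). HBE1 was listed at 0.0001 in all 12 earlier libraries, so that the difference of -6.62 ± 0.82 from either stage (limma adjusted p = 0.00402) was the fall in blastocysts itself. PHF1 was at 0.0497 to 0.369 FPKM in the earlier libraries of both groups, a range that the vitrified blastocysts shared and the fresh ones exceeded, so that it entered the test through the latter, giving differences of -1.53 from 2-cells (limma adjusted p = 0.0412) and -1.65 from 4-cells (limma adjusted p = 0.0153). LYPD6B, a membrane-anchored protein of the Ly6 family, differed by 2.71 between blastocysts and 4-cells (limma adjusted p = 0.0312). It was listed at 0.0001 in every vitrified 4-cell library and at 1.94, 2.79 and 1.88 FPKM in the fresh ones, whereas in blastocysts it was higher in the vitrified group, at 3.78, 2.92 and 1.94 FPKM against 0.694, 0.827 and 1.05 FPKM. The rise in blastocysts (1.04) lost its call under both scalings (0.98 and 0.94) and without fresh replicate 1 (0.97) or vitrified replicate 1 (0.87).

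ATP6V0D2 was near 0 in the earlier stages, at most 0.893 FPKM, and its effect in blastocysts exceeded that in 2-cells by 1.72 (limma adjusted p = 0.447) and that in 4-cells by 2.17 (limma adjusted p = 0.0660). For this gene the difference between stages therefore missed the adjusted threshold in both comparisons. It was beyond 1 and met limma's unadjusted threshold in each, so ATP6V0D2 was among the 209 and 964 genes counted above. SLC7A9 and the other genes with the largest falls, apart from GSC and PGM5, reached at most 9.25 FPKM (PCP4L1) before the blastocyst stage. GSC, in contrast, reached 17.3 to 188 FPKM in 4-cells of both groups, and its effect there (0.57) was opposite in sign to that in blastocysts. The difference of -2.63 did not pass the adjusted threshold (limma adjusted p = 0.323).

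**Figure D5:**
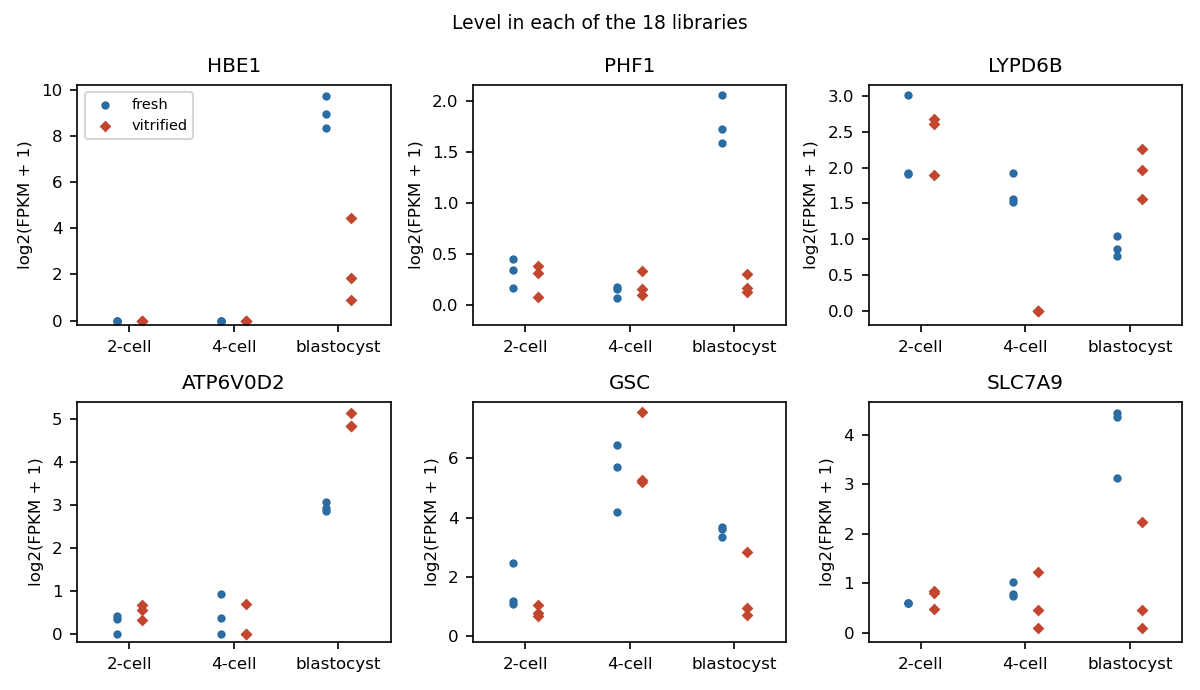
Log2(FPKM + 1) of 6 genes in each of the 18 libraries by stage, fresh as blue circles and vitrified as red diamonds, 3 libraries in each. HBE1 is listed at 0.0001 FPKM before the blastocyst stage, PHF1 is highest in the fresh blastocysts (2.01 to 3.17 FPKM), and LYPD6B is listed at 0.0001 FPKM in vitrified 4-cells but is higher in vitrified (1.94 to 3.78 FPKM) than in fresh blastocysts (0.694 to 1.05 FPKM).

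How far the calls rested on single embryos was read from fits that left out each library in turn. Of the 177 called genes, 67 were called in all 6 such fits, 42 of them higher and 25 lower. Without vitrified replicate 3 the counts rose to 192 higher and 101 lower, the largest of these fits, and without fresh replicate 2 they were 115 and 46. Of the genes called under the deposited values and both scalings, 32 of 49 higher and 25 of 58 lower were called in every such fit, and HBE1, SLC7A9, ISYNA1, MT1A, HNF4A, ATP6V0D2, IL6, PCLAF and ARPC5 were among them.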

How the data were processed

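RNA of single blastocysts from vitrified and fresh cloned zygotes (3 libraries each) was measured, and the 2-cell and 4-cell libraries (6 of each stage) were used for the comparison between stages. According to the study's methods, cDNA was made with SMART-Seq v4 and Nextera XT and sequenced on a NovaSeq, whereas the sample labels describe a small RNA protocol. The tools named by the authors are Cutadapt for trimming, FastQC for quality control, Bowtie2 and HISAT2 for mapping and StringTie, from which they deposited FPKM values in 1 column per library, with 0 listed as 0.0001. Versions, genome build and annotation release are not given in the sources used here. FPKM scale each library to its own total and hold no counts, so the depth behind a value is unknown and its precision is given by the spread between libraries only. The ratio, p and q columns of the deposited tables are the authors' own comparison and were not used.

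The table holds 24358 genes, and the reference supplied a symbol for 1021 of the 9137 that lacked one. Values were transformed as log2(FPKM + 1), so that changes of low genes are understated, and every gene reaching 1 FPKM in 3 or more of the 6 blastocyst libraries entered a test by limma 3.58.1 in R 4.3.3 with a variance trend and Benjamini-Hochberg adjustment over all genes tested. The stages were compared by an interaction term over 18 libraries (genes reaching 1 FPKM in 3 or more of them). The procedure was tested on simulated data with changes placed only in genes of higher level, so that recovery of genes near 1 FPKM was not examined. The methods speak of biological replicates, and nothing says whether the embryos of a group shared oocytes or donor cells.

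Genes were named by a rule: the 12 largest changes each way among genes with a symbol that were called under the deposited values, quantile normalization and median ratio scaling without overlap of the groups, every gene at an adjusted p under 0.05, up to 4 called members of each of 53 gene lists, the lineage markers, and up to 5 genes per difference between stages. Genes named outside it illustrate a list, or were chosen after their values were seen, such as IL6ST and STAT3. The members and lists were chosen with earlier results of these data known. Alternatives comprised both scalings, a pseudocount of 0.1, array weights, no filter, a mean of at least 5 FPKM, all 18 libraries in 1 fit, a replicate block and leaving out each blastocyst library. No sequence was printed, and some genes of the lists are not reported here by name.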

Additional observations from a re-analysis of the deposited data

Results flagged for a closer look

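The effect of vitrification in blastocysts differed from that at an earlier stage, by limma's interaction test at an adjusted p under 0.05, for 3 genes. HBE1 differed by -6.62 from 2-cells and by -6.62 from 4-cells, where it was listed at 0.0001 in every library. Its limma adjusted p of 0.00402 ranged up to 0.158 against 2-cells and 0.0787 against 4-cells over the alternatives, of which 12 of 13 stayed under 0.05 in each comparison. The setting that lost it was the replicate block, which ended all 5 differences given here. PHF1 differed by -1.53 from 2-cells (limma adjusted p = 0.0412, range 0.00210 to 1 over 9 alternatives) and by -1.65 from 4-cells (0.0153, range 0.000999 to 0.0950), and 6 and 7 of these 9 were under 0.05. PHF1 reached 1 FPKM in the 3 fresh blastocysts and in no other library, so it was tested because of its level there and could not be tested once one of them was left out. The effect on LYPD6B was -1.67 in 4-cells and 1.04 in blastocysts, opposite in sign, a difference of 2.71 (limma adjusted p = 0.0312, range 0.000215 to 0.203), under 0.05 in 4 of 12 alternatives. All 3 vitrified blastocysts were lower than all 3 fresh ones for HBE1 and PHF1 and higher for LYPD6B. HBE1 and PHF1 were at or near 0 before the blastocyst stage, and LYPD6B was listed at 0.0001 in the vitrified 4-cells.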

How the results depend on the processing

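None of the 54 genes named for their change in blastocysts reversed under any alternative, but the counts moved. With a pseudocount of 0.1, 265 genes were called higher and 98 lower. Quantile normalization gave 54 higher, median ratio scaling 53 higher and 92 lower, and a mean of at least 5 FPKM 29 lower. Leaving out 1 library gave 115 to 192 higher and 46 to 101 lower, the most without vitrified replicate 3 (192 and 101). At an adjusted p under 0.05, limma found 20 genes with all 18 libraries in 1 fit and 9 with array weights. It found 0 without the filter, after quantile normalization and after median ratio scaling, where 1650, 1083 and 1132 genes had an unadjusted p under 0.05. Without 1 library the number was 0 to 3, with 0 for each fresh library (1077, 783 and 740 genes at an unadjusted p under 0.05 without fresh replicates 1, 2 and 3) and 3 without vitrified replicate 3. Genes whose effect differed from that in 2-cells numbered 18 without the filter, 4 after median ratio scaling, 1 with a pseudocount of 0.1, 1 with a mean of at least 5 FPKM, and 2 to 13 without 1 library, with 13 again without vitrified replicate 3. Against 4-cells they numbered 24 without the filter, 44 with array weights, 1 with a mean of at least 5 FPKM, and 1 to 16 without 1 library, the extremes without fresh replicate 2 and vitrified replicate 3. The cause of these moves was not tested. Whether the replicate numbers paired the embryos is not known. Across genes, the correlation of deviations between a vitrified and a fresh blastocyst of equal number was 0.25, 0.05 and 0.00 for replicates 1, 2 and 3. For unequal numbers it ran from -0.30 (vitrified 1 with fresh 2) to 0.30 (vitrified 3 with fresh 2). With 3 single embryos a group, these values cannot decide whether embryos of equal number were paired. With the number as a block, 128 genes were called higher and 70 lower, 0 had an adjusted p under 0.05 (1319 unadjusted), and the differences from 2-cells and 4-cells numbered 0 (494 unadjusted) and 1, which was none of HBE1 (0.158 and 0.0787), PHF1 (0.240 and 0.0787) and LYPD6B (0.129 against 4-cells), as limma adjusted p. Each of the 54 named genes kept its call under the block, and 11 lost it under each scaling. With 3 embryos a group and unknown depth, changes of genes near 1 FPKM are the least certain.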

Other observations

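The following genes were looked up after their values were seen. Besides the apolipoproteins and CIDEB, TM6SF2, which acts in lipoprotein secretion in liver and gut, was called lower (-1.11), at 0.155, 0.124 and 0.144 FPKM in the vitrified and 1.04, 1.97 and 1.46 FPKM in the fresh blastocysts. It reached 1 FPKM in the fresh libraries only, so it was tested because of its level there, and the lack of overlap came with the filter. CERS4, a ceramide synthase, was at 1.22, 0.0001 and 0.0001 FPKM against 1.22, 2.5 and 2.54 FPKM (-1.21), so that replicate 1 of both groups was level. UBE2L6, the conjugating enzyme of the ubiquitin-like protein ISG15, was at 1.53, 0.699 and 4.04 FPKM against 5.71, 9.0 and 8.29 FPKM (-1.62). RRP12, a ribosome assembly factor, was at 1.35, 1.03 and 1.34 FPKM against 3.12, 4.18 and 3.87 FPKM (-1.07). All 4 were called under both scalings, but TM6SF2 could not be tested once a fresh library was left out.

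On the higher side, CAP1, which recycles actin monomers, was at 345, 198 and 209 FPKM in the vitrified and 134, 87.0 and 63.7 FPKM in the fresh blastocysts, a change of 1.41 that was called in all 6 fits leaving out a library. TBP, the TATA-binding protein, was at 2.13, 2.90 and 2.83 FPKM against 0.593, 0.440 and 0.854 FPKM (1.15), and could not be tested once a vitrified library was left out. STAU1, an RNA-binding protein of mRNA transport and decay, was at 6.94, 7.90 and 8.04 FPKM against 3.47, 1.93 and 1.43 FPKM (1.44). For all 3 genes the groups did not overlap, which for TBP came with the filter, as it reached 1 FPKM in the vitrified libraries only. RAB18, a GTPase of lipid droplets and the endoplasmic reticulum, was at 46.7, 53.4 and 44.7 FPKM against 21.8, 22.9 and 21.4 FPKM (1.09), a change that fell under the fold threshold in both scalings (0.89 and 0.93). PLEKHF2, an endosomal protein, was at 14.2, 12.5 and 11.1 FPKM against 5.11, 5.23 and 4.04 FPKM (1.23). CRYAB, a small heat shock protein, had the largest change of any gene called higher (2.82), but from 15.8 and 41.7 FPKM in vitrified replicates 2 and 3, with vitrified replicate 1 and fresh replicates 1 and 3 listed at 0.0001, and its call held in 1 of the 6 fits.

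Of 33 tested genes with symbols of small nucleolar RNAs, Cajal body RNAs or miRNA precursors, 5 were called lower and 0 higher, against 0.766% and 1.49% of all genes, with a median of -0.36 (0.11 for all genes). They were SNORA57, SNORA25, SNORA52, ssc-mir-186 and ssc-let-7f-2. SNORA25 was at 0.357, 0.382 and 0.607 FPKM against 3.03, 3.83 and 4.75 FPKM (-1.74), and could not be tested once a fresh library was left out. Such genes are shorter than usual cDNA fragments, and reads of the host transcript cannot be told apart from their own. A locus listed as ssc-mir-1285 had 19336, 72376 and 20942 FPKM in the vitrified and 26839, 28139 and 32292 FPKM in the fresh libraries, so that vitrified replicate 2 stood apart.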
